A study of Homo sapiens with 15 samples.

Results

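The genes for the receptors of glutamate, GABA and glycine were followed from human induced pluripotent stem cells (hiPSCs) through retinal organoids (ROs) to cultured Müller glial cells (iMGCs). The members were picked by gene symbol, with earlier results of these data known, and numbered 48 of the 19684 genes measured. They were 4 AMPA, 4 kainate and 7 NMDA receptor subunits, 7 metabotropic glutamate receptors, 6 alpha, 3 beta, 3 rho and 7 other subunits of GABA-A receptors, both GABA-B receptor subunits and 5 glycine receptor subunits. The kainate subunit GRIK1, the metabotropic receptor GRM6 and the delta receptor GRID1 lay outside this choice and are given beside the glutamate receptors.

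All cells came from 1 wild-type line, BC1-GFP, an hiPSC line that carries a GFP reporter. Poly(A) RNA was sequenced from 3 libraries each of undifferentiated hiPSCs, of neural retina (NR) layers dissected from ROs 70 days after induction (D70-ROs) and 150 days after induction (D150-ROs), and of iMGCs on day 5 of passage 1 (P1) and of passage 5 (P5). The iMGCs were grown from dissociated NR layers of D150-ROs on Matrigel, so the P1 and P5 groups differ from the D150-ROs in culture as well as in cell type. Serum was part of both the RO medium and the iMGC medium. Each RO library pooled several ROs. The sample protocols name 3 independent experiments for each group, but the design text names 2 for hiPSCs and ROs, so the p-values measure only the spread between these libraries, which may in part be technical. Expected counts summed to between 11349600 and 20398755 per library, D70-RO replicate 2 having the lowest total. Which libraries were sequenced together is not given in the sources used here, so sequencing batch and group cannot be told apart.

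Glutamate is the transmitter of photoreceptors, bipolar cells and retinal ganglion cells, while GABA and glycine are used by horizontal and amacrine cells. AMPA, kainate and NMDA receptors are cation channels opened by glutamate, GABA-A and glycine receptors are chloride channels, and metabotropic glutamate receptors and GABA-B receptors act through G proteins. Müller glia remove these transmitters from the extracellular space and also carry receptors for some of them.

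Levels are given as FPKM, a read density per transcript length that allows comparison between genes, and differences as log2 fold changes ± SE from counts scaled with TMM factors, with 3 libraries per group. Differences were tested over all genes above a low-count filter with the quasi-likelihood test of edgeR, adjusted after Benjamini and Hochberg, and every adjusted p in the text is from that test unless another is named. A gene was called higher or lower when the adjusted p was under 0.05 and the fold change was at least 2. RNA of a whole layer was measured, so fewer cells of a type and less RNA per cell cannot be told apart. In 7 members (GABRA4, GABRA6, GABRB1, GLRA1, GLRA3, GLRA4 and GRIN3A) the counts passed the filter in no comparison, and no library exceeded 0.29 FPKM for any of them.

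The receptor genes as a whole were most abundant in the D150-ROs and least abundant in the iMGCs. The FPKM of all 48 genes summed to 141.8 ± 4.28 in the hiPSCs (SD, n = 3), 110.1 ± 10.2 in the D70-ROs, 213.1 ± 14.0 in the D150-ROs, 36.8 ± 0.996 in the P1 iMGCs and 29.8 ± 1.93 in the P5 iMGCs. A mean of at least 1 FPKM was reached by 15, 19, 29, 7 and 5 of them in the same order. Counted over all genes in single libraries, 11986 to 12089 reached 1 FPKM in the hiPSCs, 12264 to 12334 in the D70-ROs and 12619 to 12643 in the D150-ROs. In the P1 iMGCs it was 11223 to 11272 and in the P5 iMGCs 11212 to 11248. These numbers, too, were highest in the D150-ROs and lowest in the iMGCs. Of the 39 members that met the level or count limits for individual description, 24 had the highest mean in the D150-ROs, 9 in the hiPSCs, 5 in the D70-ROs and 1, GABRA2, in the P1 iMGCs. The same split over all genes was not computed. A shift of FPKM against the TMM scale between P1 iMGCs and D150-ROs, given below, also bears on these sums and counts.

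**Figure D1:**
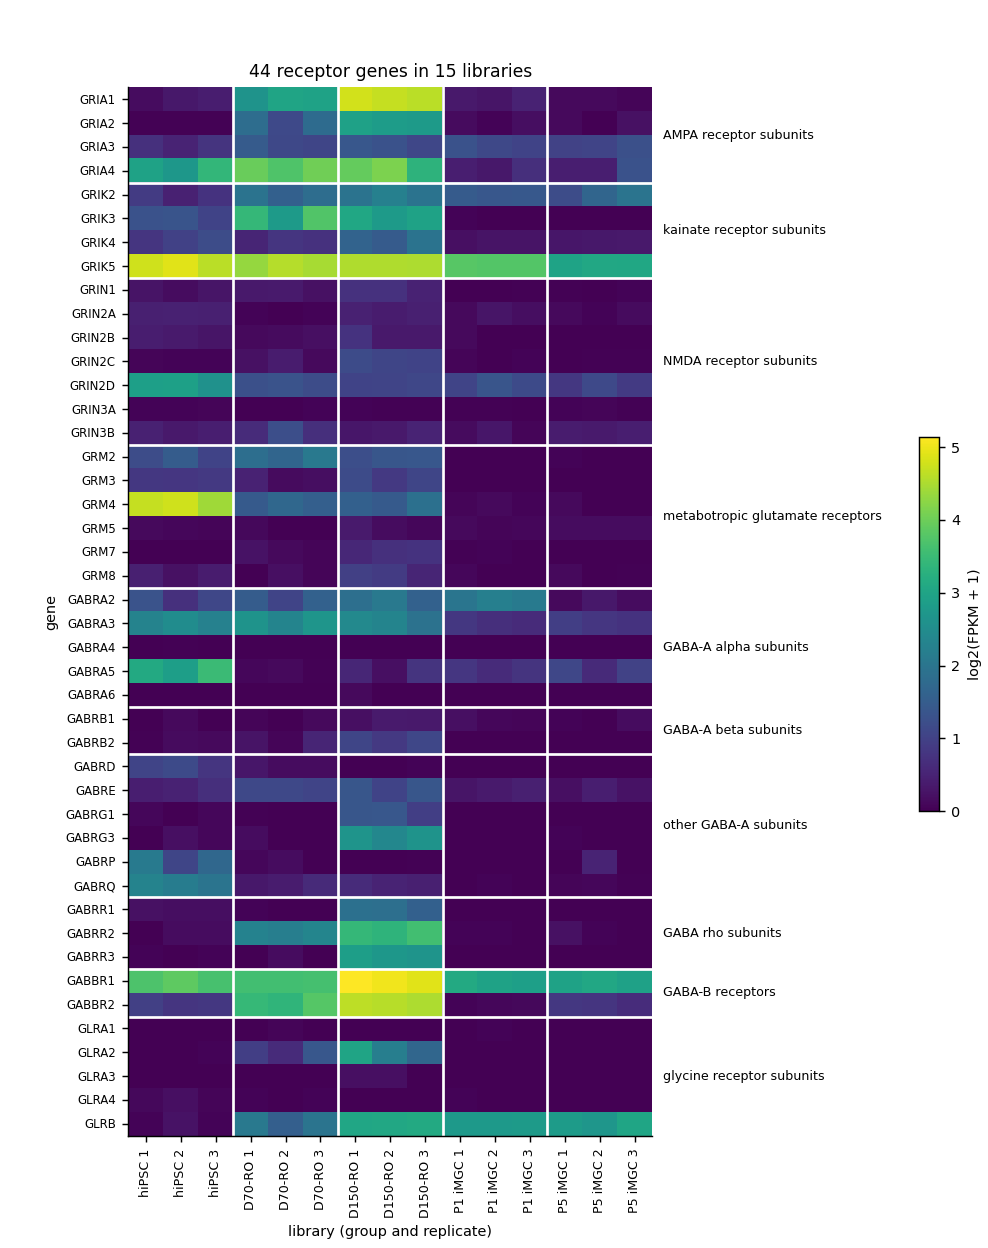
Heat map of log2(FPKM + 1) for 44 receptor genes (rows, by receptor class) in the 15 libraries (columns, by group and replicate). GRIK5 and GRM4 are bright in the hiPSCs, GRIA1, GABBR1 and GABBR2 in the D150-ROs, and in the iMGCs few rows besides GRIK5, GABBR1 and GLRB stand out from 0.

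The number of receptor genes called was set beside that over all genes in each comparison. Between D70-ROs and hiPSCs, 31 members were tested and 23 were called, 13 higher and 10 lower in the D70-ROs, where 46.0% of all tested genes were called (23.5% higher and 22.5% lower). Between D150-ROs and D70-ROs, 36 were tested and 23 called, 21 higher and 2 lower, beside 34.7% of all genes (17.4% in each direction). Between D150-ROs and hiPSCs, 40 were tested and 30 called, 23 higher and 7 lower, beside 59.9% of all genes (30.3% higher and 29.6% lower). Calls among the receptor genes lay mostly in the higher direction in both comparisons of the D150-ROs, where the calls over all genes were near evenly split, and members that pass the filter through the D150-ROs alone add to them.

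The same count between P1 iMGCs and D150-ROs gave 38 tested and 31 called, 2 higher and 29 lower, beside 46.4% of all genes (20.4% higher and 26.0% lower). Between P5 and P1 iMGCs, 17 were tested and 4 called, 2 in each direction, beside 4.46% of all genes (2.64% higher and 1.83% lower). The median log2 fold changes of the tested members were 0.60, 1.15, 1.42, −4.74 and 0.08 in the 5 comparisons as listed, where the median of all genes was 0.02, −0.01, −0.02, −0.07 and −0.00. A member that passes the filter through only 1 high group has to differ, so these medians describe the members tested and not all 48. The comparisons share groups with each other and are not independent.

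**Figure D2:**
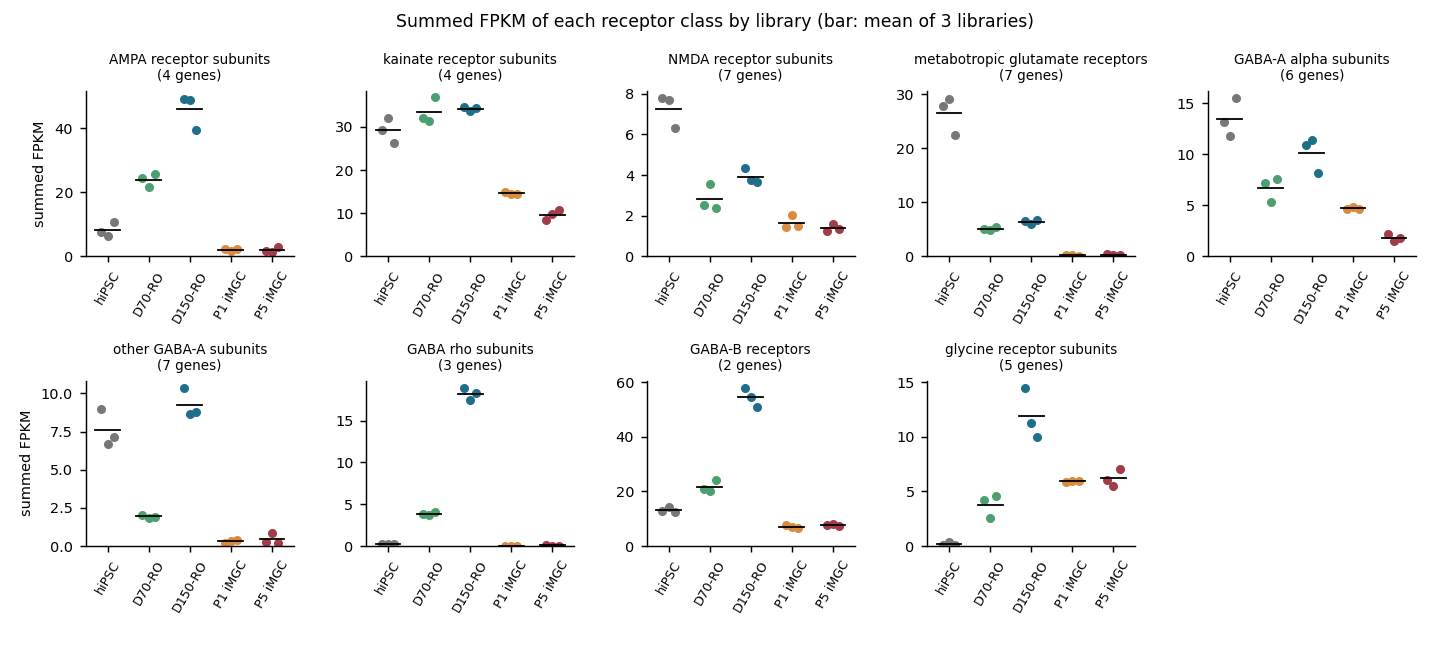
Summed FPKM of 9 receptor classes (vertical axes, linear, each starting at 0) in every library (points, coloured by group) with the mean of 3 libraries (bars). AMPA, rho, GABA-B and glycine receptor sums were highest in the D150-ROs, while the metabotropic, NMDA and alpha sums were highest in the hiPSCs.

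The AMPA receptor subunits, which carry fast excitatory transmission, were all 4 called higher in D70-ROs and in D150-ROs than in hiPSCs. GRIA1 was measured at 0.12, 0.25 and 0.33 FPKM in the hiPSCs, 5.26, 6.99 and 6.85 FPKM in the D70-ROs and 26.66, 24.71 and 23.46 FPKM in the D150-ROs. The 3 groups did not overlap, and the log2 fold change was 4.72 ± 0.28 from hiPSCs to D70-ROs (adjusted p = 6.81e-08) and a further 1.79 ± 0.14 between the RO stages (adjusted p = 5.31e-06). GRIA2, whose edited form makes AMPA channels impermeable to calcium, rose from 0.02 FPKM in every hiPSC library to 2.56, 1.20 and 2.47 FPKM in the D70-ROs and 6.66, 6.19 and 5.95 FPKM in the D150-ROs. The hiPSCs held 3 counts of GRIA2 in all, so the D150-RO to hiPSC ratio has a counting interval (95%) of 170.0 to 2419 fold.

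GRIA4 and GRIA3 differed less between the stages. GRIA4 had 6.75, 5.64 and 9.52 FPKM in the hiPSCs, 14.68, 12.19 and 15.29 FPKM in the D70-ROs and 14.20, 16.41 and 8.97 FPKM in the D150-ROs, and its call in D150-ROs against hiPSCs (1.40 ± 0.18, adjusted p = 8.76e-06) was lost with limma on log2(FPKM + 1) (0.76) and log2(FPKM + 0.1) (0.83), and D150-RO replicate 3 lay within the hiPSC range. The call in D70-ROs against hiPSCs was lost in the same way (0.88 and 0.96). GRIA3 had means of 0.593 ± 0.146 FPKM (SD, n = 3) in the hiPSCs, 1.35 ± 0.382 in the D70-ROs and 1.41 ± 0.252 in the D150-ROs. Neither gene was called between the RO stages, and both RO groups overlapped for them. GRIA1 therefore took the first place among AMPA subunits in the D150-ROs, which GRIA4 held in the hiPSCs and the D70-ROs.

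In P1 iMGCs the AMPA subunits fell apart into GRIA3 and the rest. GRIA1 had 0.27, 0.23 and 0.41 FPKM in the P1 iMGCs and GRIA4 0.34, 0.26 and 0.61 FPKM, with log2 fold changes against D150-ROs of −5.80 ± 0.11 (adjusted p = 3.29e-17) and −4.82 ± 0.21 (adjusted p = 1.35e-12). GRIA2, at 0.11, 0.04 and 0.14 FPKM, changed by −6.99 ± 0.26 (adjusted p = 1.80e-13). GRIA3 was measured at 1.46, 1.16 and 1.05 FPKM in P1 and 1.02, 1.09 and 1.39 FPKM in P5 iMGCs, a log2 difference of 0.02 ± 0.20 from D150-ROs to P1 (adjusted p = 0.916) with overlapping groups. GRIA3 was the AMPA subunit with the highest mean in both passages, but in P5 its libraries overlapped with those of GRIA4. GRIA4 had 0.35, 0.34 and 1.44 FPKM in P5 from 27, 22 and 21 counts, so the order there is not settled. The median FPKM ratio of P1 iMGCs to D150-ROs over all genes was lower than the TMM-scaled one by 0.65 on the log2 scale, so a gene with the same FPKM in both groups appears higher in the fitted value, and this bears on every comparison of iMGCs with D150-ROs given here.

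The kainate receptor subunits were led by GRIK5, a high-affinity subunit that forms channels only with a partner such as GRIK2 or GRIK3. GRIK5 had 26.21, 29.20 and 23.27 FPKM in the hiPSCs, 19.03, 22.68 and 21.25 FPKM in the D70-ROs, 22.07, 22.14 and 21.83 FPKM in the D150-ROs, 12.98, 12.68 and 12.57 FPKM in the P1 iMGCs and 6.92, 7.44 and 7.41 FPKM in the P5 iMGCs. It had the highest mean of the 48 genes in both iMGC passages and was called in no comparison. In P5 its libraries overlapped with those of GABBR1 and GLRB, so the order there is not settled. From D150-ROs to P1 iMGCs its log2 fold change was −0.12 ± 0.05 (adjusted p = 0.0609), although the FPKM groups did not overlap, and from P1 to P5 it was −0.75 ± 0.06 (adjusted p = 1.71e-09), short of a 2-fold change.

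The partner subunits of GRIK5 went different ways. GRIK3 rose from 1.44, 1.52 and 1.05 FPKM in the hiPSCs to 9.71, 6.02 and 12.38 FPKM in the D70-ROs (2.97 ± 0.23, adjusted p = 6.71e-07) and had 7.39, 5.96 and 6.84 FPKM in the D150-ROs. In the P1 iMGCs it was at 0.04, 0 and 0 FPKM, 2 counts in all, with a counting interval (95%) of 314.9 to 9409 fold below the D150-ROs, and the P5 iMGCs had none. GRIK2 rose from a mean of 0.637 ± 0.238 FPKM in the hiPSCs to 2.47 ± 0.442 in the D70-ROs (1.79 ± 0.25, adjusted p = 6.02e-05), and was kept in the iMGCs at 1.77, 1.63 and 1.66 FPKM in P1 and 1.28, 2.22 and 2.95 FPKM in P5. Its difference between P1 iMGCs and D150-ROs was −0.46 ± 0.14 (adjusted p = 0.00587) and not called. GRIK4, another high-affinity subunit, was called higher at D150 than at D70 (1.68 ± 0.31, adjusted p = 0.00111) and lower in P1 iMGCs (−2.92 ± 0.28, adjusted p = 4.49e-08), with means of 1.01, 0.617, 2.25, 0.19 and 0.26 FPKM from hiPSCs to P5 iMGCs. Of the kainate subunits of the rule, GRIK5 and GRIK2 were thus the pair still at a mean of at least 1 FPKM in iMGCs.

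NMDA receptor subunits other than GRIN2D stayed at or below 1.37 FPKM in every library. GRIN1, the subunit that every NMDA receptor needs, had 0.20, 0.12 and 0.22 FPKM in the hiPSCs, 0.27, 0.29 and 0.17 FPKM in the D70-ROs, 0.67, 0.67 and 0.40 FPKM in the D150-ROs and 0, 0 and 0.02 FPKM in the P1 iMGCs. Its call from D70-ROs to D150-ROs (1.10 ± 0.34, adjusted p = 0.0158) was lost without D150-RO replicate 1 (1.00, adjusted p = 0.056), D150-RO replicate 2 (1.03, adjusted p = 0.0529) or D70-RO replicate 3 (0.87, adjusted p = 0.055). GRIN2D had the highest level of the class, with 6.44, 6.53 and 5.05 FPKM in the hiPSCs against 1.39, 1.49 and 1.29 FPKM in the D70-ROs (−2.26 ± 0.17, adjusted p = 4.83e-07) and 1.05, 1.09 and 1.14 FPKM in the D150-ROs. It stayed at 1.08, 1.56 and 1.24 FPKM in the P1 and 0.79, 1.19 and 0.82 FPKM in the P5 iMGCs, where GRIN1 had 1 and 3 counts over the 3 libraries.

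The other GRIN2 and GRIN3 genes each had a pattern of their own. GRIN2C was at 1.26, 1.11 and 1.05 FPKM in the D150-ROs and at most 0.31 FPKM in any other library, a rise of 2.54 ± 0.40 over the D70-ROs (adjusted p = 3.73e-04). GRIN2A had 231 counts in the hiPSCs, 16 in the D70-ROs and 224 in the D150-ROs, falling by 3.74 ± 0.40 on the log2 scale (adjusted p = 7.67e-06) and then rising by 3.61 ± 0.38 (adjusted p = 3.13e-05). GRIN3B, an unusual subunit that binds glycine, was highest in the D70-ROs at 0.56, 1.37 and 0.62 FPKM. Its call there against hiPSCs (1.17 ± 0.41, adjusted p = 0.0225) was lost without D70-RO replicate 2 (0.65, adjusted p = 0.0939), hiPSC replicate 2 (1.06, adjusted p = 0.0703) or hiPSC replicate 3 (1.19, adjusted p = 0.0551). D70-RO replicate 2, the library of the lowest depth, had the highest value.

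GRIN2B gave opposite directions on the count and FPKM scales. Its expected counts were 42, 20 and 31 in the hiPSCs and 61, 37 and 80 in the D70-ROs, a log2 fold change of 1.06 ± 0.31 (adjusted p = 0.00986), while its FPKM were 0.33, 0.29 and 0.23 in the hiPSCs and 0.10, 0.11 and 0.15 in the D70-ROs. The transcript length implied by a count and an FPKM, which is the count as a share of the library total divided by the FPKM, was 6.33, 3.64 and 6.61 kb in the hiPSC libraries and 30.9, 29.6 and 29.5 kb in the D70-RO libraries. In the D150-RO libraries the implied length was 14.0, 30.4 and 18.4 kb, a wide spread within 1 group. In GENCODE 29 the longest coding transcript of GRIN2B has 30.4 kb and the next 0.83 kb. Of 25 members with at least 20 counts in every library of 2 or more groups, 2 differed by more than 1.5 times in mean implied length between groups, GRIN2B, with a ratio of 5.44 between D70-ROs and hiPSCs, and GRIA4 (2.00 kb in hiPSCs and 3.79 kb in D150-ROs). The call of GRIN2B in D70-ROs against hiPSCs was also lost without D70-RO replicate 3 (0.88) or hiPSC replicate 2 (0.86), both short of a 2-fold change, and with the trend over gene length taken into the fit (0.44, adjusted p = 0.193).

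**Figure D3:**
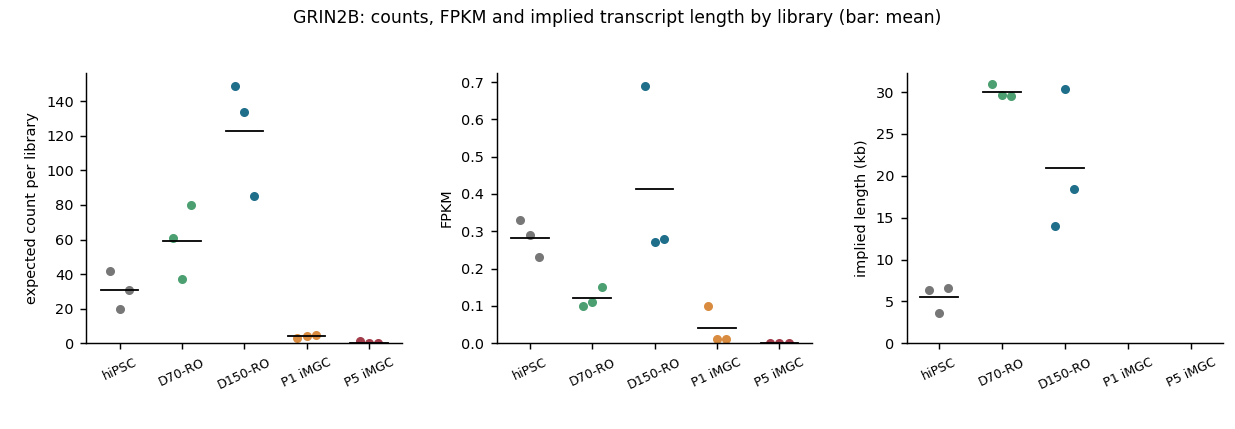
GRIN2B in each library (points) with group means (bars), as the RSEM count of the library, as FPKM and as the transcript length implied by both, in kb, for groups with at least 20 counts in every library. Counts were higher on average in D70-ROs than in hiPSCs, with overlapping libraries, while FPKM were lower. The implied length was between 3.64 and 6.61 kb in hiPSCs, between 29.5 and 30.9 kb in D70-ROs and between 14.0 and 30.4 kb in D150-ROs.

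Among the metabotropic glutamate receptors GRM4, a receptor that inhibits adenylyl cyclase, stood out in the hiPSCs with 24.98, 26.20 and 20.15 FPKM. It fell to 1.75, 2.29 and 1.94 FPKM in the D70-ROs, 3.79 ± 0.17 lower on the log2 scale (adjusted p = 9.37e-09), had 1.99, 1.76 and 2.75 FPKM in the D150-ROs, and was at or below 0.10 FPKM in each iMGC library. GRM2, a presynaptic autoreceptor, had its highest values in the D70-ROs at 2.65, 2.18 and 3.23 FPKM and was lower in the D150-ROs by 1.12 ± 0.19 (adjusted p = 6.16e-04), a call lost without D70-RO replicate 3 (−0.99) and with library totals alone as the scale (−0.90). GRM3 fell from hiPSCs to D70-ROs (−2.34 ± 0.35, adjusted p = 9.78e-05) and rose to D150-ROs (2.18 ± 0.45, adjusted p = 0.00196), with means of 0.783, 0.22 and 1.05 FPKM. GRM2 and GRM3 had no counts in the P1 iMGCs, which places them at least 76.5-fold and 56.5-fold lower than in the D150-ROs against an upper limit of 3 counts over the group.

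GRM7 and GRM8, presynaptic receptors of the same group as GRM4, were called higher at D150 than at D70, at low levels. GRM7 had no counts in the hiPSCs and 0.48, 0.63 and 0.68 FPKM in the D150-ROs, at least 28.3-fold higher against an upper limit of 3 counts. GRM8 had 0.97, 0.86 and 0.45 FPKM in the D150-ROs and a mean of 0.07 ± 0.0721 FPKM (SD, n = 3) in the D70-ROs (4.09 ± 0.57, adjusted p = 1.76e-04). GRM5, which raises intracellular calcium, reached at most 0.29 FPKM in any library, and was measured in P1 iMGCs at 0.09, 0.05 and 0.07 FPKM and in P5 at 0.13, 0.12 and 0.12 FPKM (0.54 ± 0.45, adjusted p = 0.413). No metabotropic glutamate receptor reached a mean of 1 FPKM in iMGCs.

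Of the glutamate receptor genes outside the choice, GRIK1, a kainate subunit of OFF bipolar cells, was at 15.5 FPKM on average in the D150-ROs and 0.32 in the D70-ROs (5.44 on the log2 scale), and GRM6, the glutamate receptor of ON bipolar cells, at 4.97 and 0.637 FPKM (2.74). Both were called higher in D150-ROs and lower in P1 iMGCs, where they had 0.0433 and 0.00667 FPKM on average. GRID1 was called higher in both RO stages than in hiPSCs, at a mean of up to 0.73 FPKM.

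The GABA-A receptor is a pentamer built mostly from 2 alpha, 2 beta and 1 gamma or other subunits, and its genes changed in opposite directions during RO development. In hiPSCs GABRA5 had 7.69, 6.39 and 10.30 FPKM, and in the D70-ROs it fell to 0.06, 0.10 and 0.02 FPKM (−6.89 ± 0.36, adjusted p = 2.62e-08), without overlap between the groups. The theta, pi and delta subunits also had their highest level in hiPSCs. GABRQ had 3.91, 3.49 and 2.95 FPKM, GABRP 3.28, 1.11 and 2.31 FPKM and GABRD 1.08, 1.22 and 0.74 FPKM, and each was called lower at both RO stages.

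In the D150-ROs another set of GABA-A genes was present. It included the gamma subunits GABRG3 and GABRG1, gamma subunits being those that give most GABA-A receptors their sensitivity to benzodiazepines. GABRG3 had 5.32, 4.24 and 5.24 FPKM against 3 counts over the D70-RO libraries, a ratio with a counting interval (95%) of 82.2 to 1173 fold. GABRG1 had 1.60, 1.63 and 0.93 FPKM (6.52 ± 0.51 over the D70-ROs, adjusted p = 5.19e-06). Neither exceeded 0.16 FPKM in a library of another group. GABRB2 was called higher as well (1.57 ± 0.41, adjusted p = 0.00718) at 1.10, 0.80 and 1.14 FPKM. GABRA3, which had 3.92, 4.67 and 3.80 FPKM in the hiPSCs, 5.27, 3.96 and 5.43 FPKM in the D70-ROs and 4.36, 4.02 and 2.84 FPKM in the D150-ROs, was called in neither RO comparison with hiPSCs nor between the stages. GABRE rose from hiPSCs to D70-ROs (1.17 ± 0.30, adjusted p = 0.00403) to 1.17, 1.17 and 1.09 FPKM and had 1.60, 1.05 and 1.60 FPKM in the D150-ROs.

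In iMGCs most GABA-A genes were at or near 0. GABRG3 and GABRG1 had no count in P1, at least 246.2-fold and 156.9-fold below the D150-ROs against an upper limit of 3 counts over the group. GABRA3 was still at 0.78, 0.62 and 0.55 FPKM in P1 (−1.93 ± 0.20, adjusted p = 9.67e-08), and GABRE at 0.22, 0.29 and 0.36 FPKM (−1.62 ± 0.29, adjusted p = 6.67e-05). Beside these losses, an alpha subunit stayed: GABRA2 had 1.48, 0.65 and 1.15 FPKM in the hiPSCs, 1.84, 1.08 and 2.04 FPKM in the D70-ROs, 2.68, 3.25 and 2.04 FPKM in the D150-ROs and 3.02, 3.63 and 3.32 FPKM in the P1 iMGCs. The P1 iMGCs and D150-ROs overlapped in FPKM, and the call (1.02 ± 0.14, adjusted p = 3.37e-06) was lost with library totals alone as the scale (0.37), with upper-quartile scaling (0.92), without D150-RO replicate 3 (0.88) and without P1 iMGC replicate 2 (0.98).

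By passage 5 GABRA2 was at 0.09, 0.26 and 0.13 FPKM, without overlap with P1, and the log2 fold change was −4.31 ± 0.23 (adjusted p = 2.06e-13). This was the largest fitted change among the 17 members tested between the passages. GABRA5 was at 0.46, 0.16 and 0.70 FPKM in the D150-ROs, 0.76, 0.56 and 0.72 FPKM in P1 and 1.14, 0.52 and 1.02 FPKM in P5. Its call in P1 against D150-ROs (1.73 ± 0.38, adjusted p = 5.14e-04) was lost with limma on log2(FPKM + 1) and on log2(FPKM + 0.1), and the FPKM groups overlapped. From P1 to P5 GABRA5 differed by 0.08 ± 0.30 (adjusted p = 0.873).

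The rho subunits, which form slowly closing GABA channels of bipolar cells, were measured almost solely in the ROs. GABRR2 had 0, 0.13 and 0.12 FPKM in the hiPSCs, 3.83, 3.61 and 4.05 FPKM in the D70-ROs and 9.70, 9.17 and 11.01 FPKM in the D150-ROs, rising by 5.36 ± 0.48 (adjusted p = 1.93e-06) and by a further 1.14 ± 0.14 (adjusted p = 8.27e-05). GABRR1 and GABRR3 had 2 counts each over the D70-RO libraries and reached 2.74, 2.69 and 1.98 FPKM and 6.42, 5.57 and 5.35 FPKM in the D150-ROs. Their ratios of D150-ROs to D70-ROs had counting intervals (95%) of 47.7 to 1439 fold and 58.8 to 1771 fold. GABRR2 was thus present at the earlier stage, while GABRR1 and GABRR3 were seen in number at the later stage only. None of the 3 exceeded 0.17 FPKM in an iMGC library, and GABRR1 and GABRR3 had no counts in P1 or P5, at least 118.1-fold and 145.5-fold below the D150-ROs for P1.

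The upstream sequences of the rho genes are printed to show what the sequence ahead of these 3 genes holds. Regulation of these genes by any factor was not tested. RefSeq promoter sequences on GRCh38.p14 were given for 37 of the 48 members, and the 250 bases before the start were searched on both strands for TAATCC, the core bound by the photoreceptor and bipolar factors CRX and OTX2. It was found in 2 of the 37 members (5.41%), GABRR3 and GLRA3, and in 5.67% of 27305 promoters of all genes. The 3 rho sequences are given on the minus strand, the strand of each gene, in lower case, with TAATCC and its reverse complement GGATTA in capitals.
GABRR1, chr6:89217778-89218027: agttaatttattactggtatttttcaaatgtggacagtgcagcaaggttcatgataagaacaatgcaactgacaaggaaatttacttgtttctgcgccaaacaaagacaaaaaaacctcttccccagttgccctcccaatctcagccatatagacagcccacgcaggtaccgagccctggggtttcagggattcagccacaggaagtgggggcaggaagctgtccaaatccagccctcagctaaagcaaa
GABRR2, chr6:89315300-89315549: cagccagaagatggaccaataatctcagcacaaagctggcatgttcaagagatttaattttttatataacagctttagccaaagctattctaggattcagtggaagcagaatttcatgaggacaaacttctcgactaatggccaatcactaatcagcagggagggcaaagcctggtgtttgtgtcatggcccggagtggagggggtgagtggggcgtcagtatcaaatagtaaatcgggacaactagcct
GABRR3, chr3:98035316-98035565: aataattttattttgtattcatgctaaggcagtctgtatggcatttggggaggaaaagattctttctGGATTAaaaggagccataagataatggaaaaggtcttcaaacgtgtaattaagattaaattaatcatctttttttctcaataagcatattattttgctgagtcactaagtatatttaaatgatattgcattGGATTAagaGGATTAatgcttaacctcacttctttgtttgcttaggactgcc

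GABRR3 held 3 matches, all as GGATTA, and GABRR1 and GABRR2 held none in this window. In the GENCODE 29 annotation of GRCh38 the GABRR1 window lies in an intron of a longer model of the gene itself, and the windows of GABRR2 and GABRR3 lie in no annotated gene. The 3 windows were poor in the dinucleotide CpG, with 3, 4 and 1 in GABRR1, GABRR2 and GABRR3, where the 37 members had a median of 14 and all promoters one of 11. A further pair of motifs was searched on both strands. The GC box GGGCGG was found in 20 of the 37 members and 42.3% of all promoters, and the E-box CAGCTG in 3 and 13.8%.

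The GABA-B receptor works as a pair of GABBR1, which binds GABA, and GABBR2, which reaches the G protein, and the pair parted in iMGCs. GABBR1 had 12.03, 13.58 and 11.57 FPKM in the hiPSCs, 11.07, 11.03 and 11.33 FPKM in the D70-ROs, 34.31, 31.51 and 29.14 FPKM in the D150-ROs, 7.70, 6.78 and 6.44 FPKM in P1 and 6.76, 7.52 and 6.67 FPKM in P5. It was higher at D150 than at D70 by 1.18 ± 0.10 (adjusted p = 8.23e-06), and the change from D150-ROs to P1 iMGCs was −1.5 ± 0.07 (adjusted p = 1.25e-12). GABBR2 rose from 0.96, 0.74 and 0.79 FPKM in the hiPSCs to 9.86, 9.33 and 12.74 FPKM in the D70-ROs (3.59 ± 0.16, adjusted p = 9.93e-09) and had 23.82, 23.10 and 21.77 FPKM in the D150-ROs. In P1 iMGCs it was at 0.04, 0.07 and 0.08 FPKM, a fall of 7.77 ± 0.13 on the log2 scale (adjusted p = 4.08e-18).

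From P1 to P5 GABBR2 rose again, to 0.78, 0.73 and 0.58 FPKM, with 19 counts over the P1 libraries and 204 over the P5 libraries. The groups did not overlap, and the log2 fold change was 3.46 ± 0.31 (adjusted p = 3.00e-09), the largest rise among the 17 members tested. Its level in P5 was close to that in hiPSCs and far below that in either RO group. GABBR1 did not move with it (0.09 ± 0.07, adjusted p = 0.379). The remaining calls between the passages were GRIA1, at 0.27, 0.23 and 0.41 FPKM in P1 and 0.10, 0.09 and 0.05 FPKM in P5 (−1.79 ± 0.41, adjusted p = 0.00167), and GRIN3B, at 0.11, 0.24 and 0.05 FPKM in P1 and 0.31, 0.30 and 0.34 FPKM in P5 (1.29 ± 0.44, adjusted p = 0.0282). With limma on log2(FPKM + 1) the calls of GABBR2 (0.67), GRIA1 (−0.27) and GRIN3B (0.22) were lost. GRIA1, with 73 counts in P1 and 20 in P5, and GRIN3B were also lost in the edgeR test against a 2-fold change. The GRIN3B call was lost as well with DESeq2 (adjusted p = 0.0762) and without P1 iMGC replicate 1 (0.0856), P1 iMGC replicate 3 (0.152), P5 iMGC replicate 1 (0.0518) or P5 iMGC replicate 3 (0.075).

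**Figure D4:**
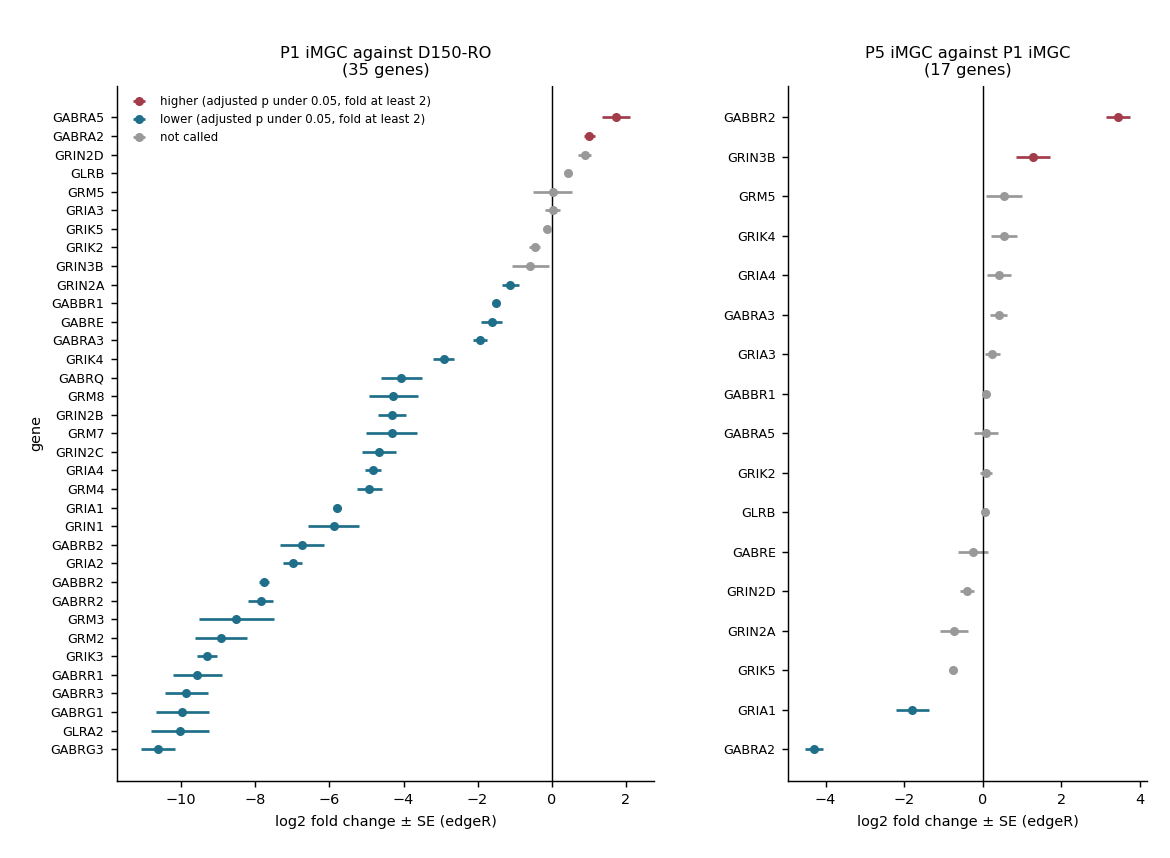
Log2 fold changes (horizontal axes, points with SE from edgeR, 3 libraries per group) of the receptor genes tested between P1 iMGCs and D150-ROs (left, 35 genes) and between P5 and P1 iMGCs (right, 17 genes), red and blue marking genes called higher and lower. On the left most genes lie below 0, where the values of genes without counts in P1 depend on the prior count of the fit, and on the right GABBR2 lies at 3.46 and GABRA2 at −4.31.

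Glycine receptors need an alpha subunit to form a channel, to which the beta subunit GLRB adds the link to the scaffold protein gephyrin. GLRB had 0.03, 0.19 and 0.03 FPKM in the hiPSCs, 3.22, 1.96 and 2.95 FPKM in the D70-ROs and 7.29, 7.53 and 7.74 FPKM in the D150-ROs, rising by 5.5 ± 0.51 (adjusted p = 2.45e-06) and by a further 1.16 ± 0.21 (adjusted p = 8.96e-04). The latter call was lost without D70-RO replicate 2 (0.97). GLRA2, the alpha subunit of the developing nervous system, was at 0, 0 and 0.03 FPKM in the hiPSCs, 0.93, 0.55 and 1.64 FPKM in the D70-ROs and 7.02, 3.57 and 2.24 FPKM in the D150-ROs (1.63 ± 0.32 between the RO stages, adjusted p = 0.00143). The D150-RO libraries spread widely for GLRA2, without overlap with the D70-ROs. GLRA1, GLRA3 and GLRA4 did not exceed 0.15 FPKM in any library.

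In iMGCs GLRB and GLRA2 separated. GLRB was measured at 5.87, 5.92 and 5.95 FPKM in P1 and 6.08, 5.53 and 7.09 FPKM in P5. It had the third highest mean of the 48 genes in both passages, although in P5 its libraries overlapped with those of GRIK5 and GABBR1. P1 differed from the D150-ROs by 0.43 ± 0.10 (adjusted p = 7.07e-04) in the fit while the FPKM of GLRB were lower in each P1 library than in each D150-RO library, so no direction is given. GLRA2 had no counts in either passage, at least 163.1-fold lower in P1 than in D150-ROs against an upper limit of 3 counts, and of the alpha subunits 1 count of GLRA1, 1 of GLRA3 and 1 of GLRA4 was found in the P1 libraries together.

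GRIK5, GABBR1 and GLRB held 69.7% of the summed FPKM of all members in the P1 and 68.6% in the P5 iMGCs. For each of these 3 the gene of a usual partner was called lower in P1 iMGCs than in D150-ROs, namely GRIK3, GABBR2 and GLRA2, while GRIK2, another partner of GRIK5, was not called. In the D150-ROs GABBR1 had the highest mean, at 31.7 ± 2.59 FPKM (SD, n = 3), without overlap with the genes that followed. These were GRIA1 at 24.9 ± 1.61, GABBR2 at 22.9 ± 1.04 and GRIK5 at 22.0 ± 0.163 FPKM. Of these, the libraries of each gene overlapped with those of the next, but GRIA1 and GRIK5 did not overlap.

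Many receptor genes lie side by side in the genome, and 18 of the 48 fell into 6 groups in which neighbours were less than 1 Mb apart (GENCODE 29, GRCh38). Of these, 4 groups with 11 members are described. On chromosome 4, from 46035769 to 47426444, GABRA2 was at 3.32 FPKM on average in P1 iMGCs while GABRG1 was at 0, GABRA4 at 0.00333 and GABRB1 at 0.0867 FPKM. Further along chromosome 4, from 157076057 to 157366075, GLRB and GRIA2 rose together in the ROs, and in P1 iMGCs GLRB was at 5.91 and GRIA2 at 0.0967 FPKM. Neighbours thus did not share 1 pattern in these regions.

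On chromosome 6, from 89177501 to 89315299, GABRR1 and GABRR2 differed in the D70-ROs, with 0.0133 and 3.83 FPKM on average. On chromosome X, from 151953124 to 152657534, GABRE, GABRA3 and GABRQ had their highest means in D150-ROs, D70-ROs and hiPSCs. GABRA4 and GABRB1, and likewise GABRB2 and GABRA6, overlap on opposite strands, and strand use in the counting is not given in the sources used here, so reads from the shared stretches cannot be assigned with certainty.

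**Figure D5:**
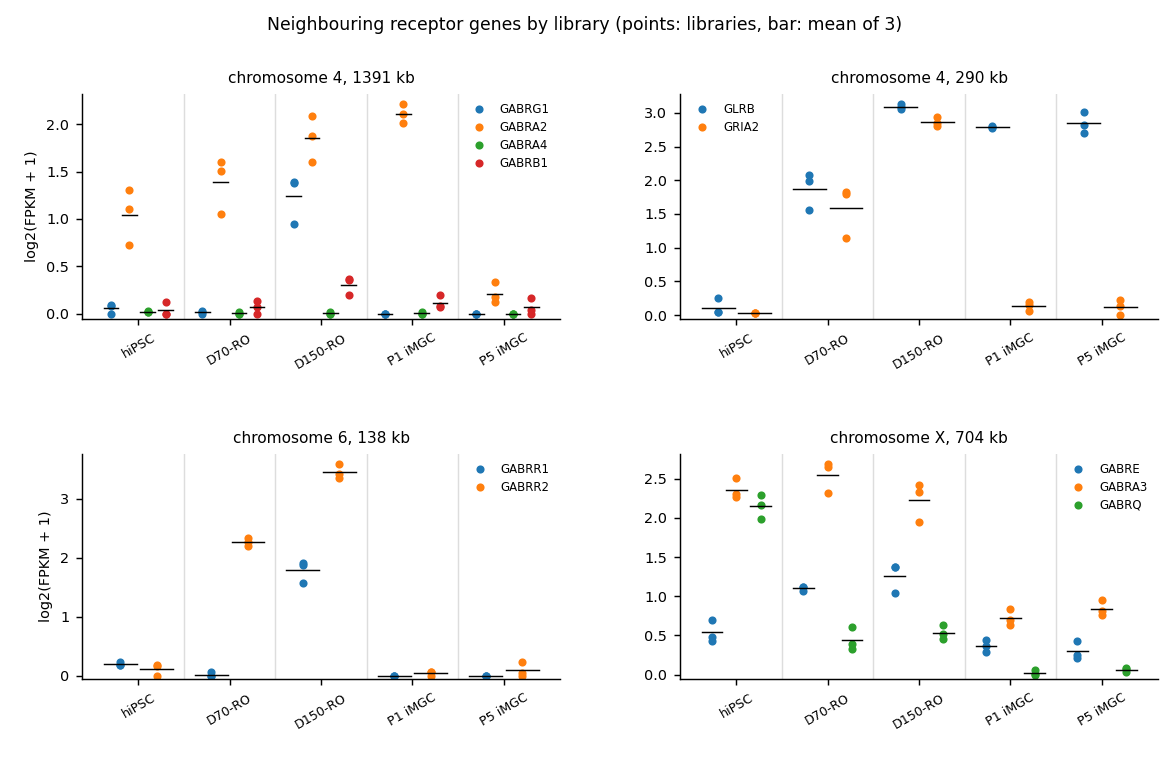
Levels as log2(FPKM + 1) of 11 receptor genes that lie within 1 Mb of another, in 4 panels by chromosome with the length of the region, for each library (points) with the mean of 3 (bars). In the chromosome 4 panel of 290.0 kb GLRB stays near its D150-RO level in iMGCs and GRIA2 does not.

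Genes that work with these receptors were counted by list, beside 17.4% of all genes higher and 17.4% lower between the RO stages and 20.4% higher and 26.0% lower in P1 iMGCs than in D150-ROs. Of 18 partners of AMPA and kainate receptors, 8 were higher and 5 lower at D150 than at D70, and 1 higher and 12 lower in P1 iMGCs than in D150-ROs. CACNG4 and CACNG5, which traffic AMPA receptors, were at 10.2 and 27.5 FPKM on average in the D150-ROs and at 0 in both iMGC passages. NETO2, an auxiliary subunit of kainate receptors, was measured at 22.4 FPKM in D150-ROs, 15.8 in P1 and 15.3 in P5 iMGCs and was called in neither iMGC comparison. Of 17 genes of the excitatory scaffold 11 were lower in P1 iMGCs and 2 higher, DLG1 (57.6 to 160.3 FPKM) and CAMK2A (0.55 to 1.13 FPKM), and DLG4, the main scaffold of excitatory synapses, was at 173.4 FPKM in D150-ROs and 10.6 in P1.

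Of 14 inhibitory postsynaptic partners, 9 were lower and 1 higher in P1 iMGCs than in D150-ROs, beside the same 26.0% and 20.4% of all genes, which also hold for the lists that follow. GPHN, which encodes gephyrin, was at 14.2 FPKM in the D150-ROs and 2.70 in P1 iMGCs (−1.52). Of 10 genes of transmitter synthesis and vesicle loading, 5 were higher and 3 lower at D150 than at D70 and 8 were lower and 1 higher in P1 iMGCs than in D150-ROs. Of 10 genes of the G protein cascade of ON bipolar cells, 5 were higher and none lower at D150 than at D70, and 8 were lower in P1 iMGCs. GNB3 reached 448.1 FPKM in the D150-ROs, and which cells of the layer held its transcripts was not tested. ADARB1, which edits the GRIA2 transcript, rose from 3.80 FPKM in hiPSCs to 35.5 in D70-ROs (3.15) and was lower in P1 iMGCs at 4.52 FPKM (−2.65). None of the tested genes in these lists was called between P5 and P1 iMGCs, beside 4.46% of all genes. Tested there were 10 of 18 AMPA and kainate receptor partners, 12 of 17 excitatory scaffold genes and 11 of 14 inhibitory partners. For transmitter synthesis it was 3 of 10, for the G protein cascade 3 of 10 and for RNA editing 2 of 3. With so few tested, the absence of calls does not show that these genes were stable.

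Marker genes of whole cell types are given beside these results, and their lists did not all change in the same direction. Between the RO stages the retinal ganglion cell sum fell while the photoreceptor and bipolar sums rose. In summed FPKM, 8 pan-neuronal genes lay at 40.1 to 47.6 in the hiPSCs, 620.1 to 873.4 in the D70-ROs, 819.4 to 857.0 in the D150-ROs, 17.6 to 20.5 in P1 and 17.4 to 18.6 in P5 iMGCs, and all 8 were lower in P1 iMGCs than in D150-ROs. Photoreceptor genes (9) rose from 161.8 to 179.5 in the D70-ROs to 1317 to 1443 in the D150-ROs and were at 0.33 to 0.52 in P1, with CRX, RCVRN, ARR3, PDE6H and AIPL1 at 0, and bipolar genes (9) from 167.8 to 183.1 to 695.6 to 755.1, with VSX1, CABP5, TRPM1, PCP2, ISL1 and CA10 at 0 in P1. Amacrine and horizontal cell genes (11) lay at 36.3 to 39.0, 95.2 to 126.1 and 9.33 to 10.9 from D70-ROs through D150-ROs to P1 iMGCs, and retinal ganglion cell genes (9) at 242.5 to 297.4, 36.9 to 47.4 and 34.5 to 39.7 in the same order.

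The 10 Müller glia genes summed to 1506 to 1674 FPKM in D150-ROs and 2483 to 2509 in P1 iMGCs, 3 being called higher and 5 lower. Of these, VIM, CRYAB and DKK3 had 2160, 30.2 and 246.2 FPKM on average in P1 iMGCs, but RLBP1, CA2 and AQP4 were listed at 0 and SLC1A3 and GLUL had 0.373 and 13.4 FPKM, where the D150-ROs had 28.0 and 100.2. Several of the 10 listed markers were thus absent or low in the P1 iMGCs, while 6 had a mean of at least 1 FPKM. In P5 it was 7, the sum was 3379 to 3478 FPKM, and only AQP4 was at 0 in every library. Mesenchymal genes (9), led by COL1A1 and TAGLN, summed to 4273 to 4561 FPKM in P1 and 14.2 to 16.6 FPKM in D150-ROs. Astrocyte genes (5) stayed at or below 1.38 FPKM in the iMGCs and microglia genes (5) at or below 0.94. Retinal progenitor genes (9) lay at 309.6 to 328.0 in D150-ROs and 102.1 to 118.4 in P1, pigment epithelium genes (7) at 132.3 to 139.0 and 6.84 to 8.11, and pluripotency genes (6) at 3603 to 3739 in hiPSCs and at most 17.8 elsewhere. The part of these cell types in the levels of the receptor genes was not tested.

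Changes between the stages also differed by gene length. Between the RO stages the median log2 fold change was −0.64 over the 3525 genes with the shortest and 0.55 over the 3524 with the longest implied transcripts, and between D150-ROs and hiPSCs it was −0.81 and 0.84 over 3663 genes each. Of the members tested, 11 of 36 and 12 of 40 fell among the longest. With the length trend taken into the fit, 21 members were called between the RO stages and 28 between D150-ROs and hiPSCs, GRIN1 and GABBR1 among those losing the call in the former and GRIK3, GRIN1 and GRIN2B in the latter, GRIN2B also in D70-ROs against hiPSCs, and in P1 iMGCs against D150-ROs GRIN2A lost it. The share of all genes called with the length trend in the fit is not given here, so these counts describe the members only. The part of length in these results was not otherwise tested.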

How the data were processed

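Poly(A) RNA-seq libraries were mapped with HISAT2, assembled with StringTie and quantified with RSEM by the authors. Software versions, genome build and annotation are not given in the sources used here. The deposited values are RSEM expected counts per gene, not normalized, and FPKM, scaled by the authors for length and mapped reads. The design text names 2 sequencing companies and a median-based correction between batches, and whether the deposited values carry that correction, and for which libraries, is not given in the sources used here. The 3 deposited tables list 19684 genes, and 8.21% to 10.1% of expected counts per library were not whole. The D150-RO and P1 iMGC columns stand in separate tables, and 6 iMGC columns that match no sample of known passage were not used.

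Counts were rounded, filtered with filterByExpr (minimum count 10) and tested between 2 groups at a time, without covariates, in R 4.3.3 with edgeR 4.0.16 and TMM factors, with limma 3.58.1 and DESeq2 1.42.0 as alternatives. The tests were checked on simulated data. Members with a mean of at least 1 FPKM in a group, or called with a mean of at least 20 counts, were to be given in every library where a result turns on them, and of each partner list up to 5 genes. The members and lists were chosen with earlier results of these data known. A group without counts has an upper limit of 3 counts over the group, and 1 to 3 counts give a 95% interval of the ratio, both scaled to library totals and covering counting error only. Gene positions and transcript lengths are from GENCODE 29 (GRCh38). Some genes, members included, are not reported here by name, and counts and sums over lists include them.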

Additional observations from a re-analysis of the deposited data

How the results depend on the processing

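Alternatives were run for the genes called and for their number. The share of all genes called under each alternative is not given here, so the numbers describe the members only. Every called gene kept its direction under the alternatives run except GRIN2B between D70-ROs and hiPSCs, which was −0.20 with limma on log2(FPKM + 1) and −0.80 on log2(FPKM + 0.1), and GABRA2, which was −3.29 with P5 in place of P1 iMGCs against D150-ROs. The number of receptor genes called moved by over 1.5 times with limma on log2(FPKM + 1) to 13 between D70-ROs and hiPSCs, 13 between the RO stages and 1 between P5 and P1 iMGCs, a scale on which low genes change less by construction. With a filter at 1 FPKM, which tests fewer genes, it was 14 between the RO stages, 20 between P1 iMGCs and D150-ROs and 1 between the passages. With a test against a 2-fold change it was 14 between the RO stages and 2 between the passages. Without each library in turn the counts were 22 to 25 between D70-ROs and hiPSCs, 22 to 24 between the RO stages, 30 to 32 between D150-ROs and hiPSCs, 30 to 32 between P1 iMGCs and D150-ROs and 3 to 4 between the passages. Equally numbered replicates correlated between −0.05 and 0.25 in their deviations from the group means, the highest for replicate 2 of D70-ROs and hiPSCs. With 3 libraries per group this cannot decide whether equal numbers mark a pairing. With the replicate number as a block the counts were 24, 23, 30, 31 and 4 in the same order. Library totals alone as the scale, chosen after seeing the data, gave 25, 24, 32, 32 and 4. Members at a few counts per library are limited by depth, and for them a count of 0 allows up to 3 counts over a group. Of the called genes' values under the alternatives, 1909 kept their direction and their side of the threshold and 110 kept only the direction.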
